A study of Mus musculus with 12 samples.

Results

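The imprinted growth genes followed here were Plagl1, Peg3, Grb10, Mest, Meg3, Igf2, Cdkn1c, Ndn, H19 and Dlk1, 10 of the 35275 genes in the deposited table. Each was found by its gene symbol, and each had 1 row. Of the 10, 9 held enough reads to be tested, and Dlk1 did not. The lungs came from male wild-type C57Bl/6J mice aged 3, 6, 12 and 24 months. At each age 3 mice were sampled, and each mouse gave 1 poly(A) RNA-seq library. Lungs were minced and stored in RNAlater before extraction. The groups differed by age, and no allele or treatment was added to any of them.

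An imprinted gene is read mainly from the copy inherited from one parent, and the choice is marked by DNA methylation placed in the germ line at CpG-rich control regions. Many of these genes act on the size of the fetus. Copies active from the father tend to promote growth and copies active from the mother tend to restrain it. Several are strongly expressed in fetal organs, the lung included, and decline after birth. Reads per gene do not separate the parental copies, so the imprint itself was not measured here.

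Libraries held 14.7 to 21.2 M gene reads. Summed markers of lung epithelium and endothelium ranged from 48926 to 86874 CPM (counts-per-million of TMM-scaled gene reads) over the 12 libraries, and all 13 of these markers were tested. The 24-month libraries differed from the others in base composition: the mean GC content of genes, weighted by reads, was 54.5 to 56.0% at 24 months, against 50.9 to 52.2% in the other 9 libraries. Their TMM scaling factors were 0.521 to 0.826, against 1.06 to 1.20 in the other 9. Among the 24-month libraries, mouse 3 had the highest GC content and the lowest factor. Results are therefore given both uncorrected and after a correction that removes each library's trend on GC content and gene length. The labels name no batch, so age and the composition of the 24-month libraries cannot be told apart. The median gene differed by -0.29 on the log2 scale at 24 against 3 months after TMM scaling, by -1.001 on library totals and by 0.01 with the correction.

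At 12 months, 5 imprinted growth genes were lower than at 3 months and none of the 9 was higher, in the edgeR quasi-likelihood test at an adjusted p under 0.05. Among all tested genes 15.2% were called in this comparison, 8.87% lower and 6.3% higher, and 41.5% of the calls were higher (29.9% on library totals, 51.2% with a GC correction). The 5 were Plagl1, Peg3, Grb10, Mest and Meg3. The same 5 were lower with the GC and length correction, where 17.7% of all genes were called, 9.82% higher and 7.89% lower. They were lower again at 24 against 3 months in both forms of the test. The comparisons against 3 months share the 3-month mice, so they are given side by side and not as separate support. In bulk lung, fewer cells of a type and less RNA per cell cannot be told apart.

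**Figure D1:**
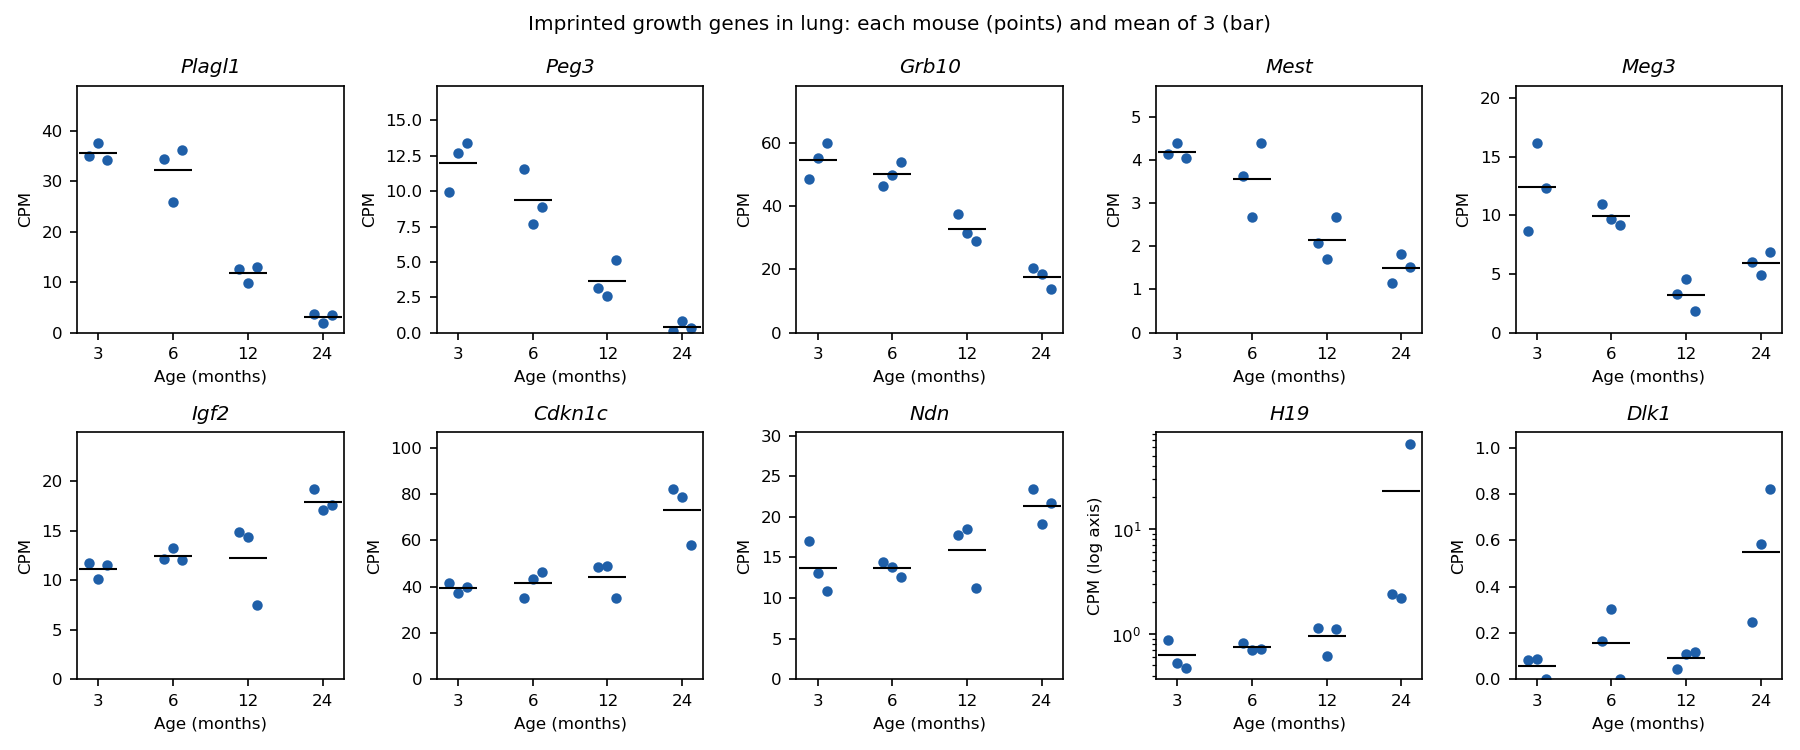
Levels of the 10 imprinted growth genes in each lung, in TMM-scaled CPM (vertical axes, from 0 except H19, which has a log axis), by age in months. Points are mice and bars are means of 3; Plagl1 lies between 1.82 and 3.70 CPM at 24 months and between 34.3 and 37.6 CPM at 3 months, while Igf2, Cdkn1c and Ndn lie highest at 24 months on this scale (their log2 fold changes at 24 against 3 months turn, for Igf2 and Ndn, to -0.03 and -0.09 on library totals and, for Cdkn1c, to -1.13 with the GC and length correction).

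Plagl1 encodes a zinc-finger transcription factor, also called Zac1, that is active from the father's copy and regulates other imprinted genes. Its level was 35.0, 37.6 and 34.3 CPM in the 3-month mice, 34.4, 26.0 and 36.3 CPM at 6 months, 12.6, 9.78 and 13.1 CPM at 12 months, and 3.70, 1.82 and 3.51 CPM at 24 months. The groups did not overlap between 24, 12 and 6 months, and 6 and 3 months overlapped. Plagl1 fell by 1.59 on the log2 scale at 12 against 3 months (SE 0.23, edgeR adjusted p = 0.0023), and with the correction by 1.46 (SE 0.23, edgeR adjusted p = 0.00229). It fell by 3.58 at 24 against 3 months (SE 0.27, edgeR adjusted p = 4.66e-08), to 0.0835 times the 3-month level. With the correction it fell by 4.39 (SE 0.28, edgeR adjusted p = 7.36e-08), to 0.0476 times. The difference at 24 against 12 months was also past the threshold, at -1.99 (SE 0.26, edgeR adjusted p = 8.37e-06) and -2.94 with the correction. Plagl1 transcripts are GC-rich at 55.6%. The 1792 tested genes within 1 percentage point of that GC content had a median of 1.51 at 24 months on the same scale, the opposite direction to Plagl1.

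Peg3, a paternally expressed zinc-finger gene on chromosome 7, had 9.93, 12.7 and 13.4 CPM at 3 months and 11.6, 7.71 and 8.90 CPM at 6 months. It had 3.16, 2.60 and 5.14 CPM at 12 months, and 0.0823, 0.800 and 0.351 CPM at 24 months. The 24-month values rest on 1, 11 and 3 reads, against 240 to 289 reads in the 3-month libraries. No 12-month mouse reached any 6-month mouse, and no 24-month mouse reached any 12-month mouse. Peg3 fell by 1.73 at 12 against 3 months (SE 0.34, edgeR adjusted p = 0.00734) and by 4.78 at 24 against 3 months (SE 0.46, edgeR adjusted p = 2.51e-07). With the correction the values were -1.21 (SE 0.28, edgeR adjusted p = 0.0127) and -3.08 (SE 0.43, edgeR adjusted p = 2.71e-05). The size at 24 against 3 months rests on single mice: it was -5.89 uncorrected and -4.16 corrected without 24-month mouse 2, and -2.47 corrected without 24-month mouse 1, with the call kept in all 12 fits of each form. Genes of like GC content (48.7%) had a median of -1.12 at 24 against 3 months.

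Grb10 encodes an adaptor that binds the insulin and IGF1 receptors and restrains growth, and it is maternally expressed in most tissues. Per mouse it had 48.6, 55.0 and 59.9 CPM at 3 months, 46.4, 49.8 and 53.7 CPM at 6 months, 37.4, 31.3 and 29.1 CPM at 12 months, and 20.5, 18.5 and 13.7 CPM at 24 months. The 24-month mice lay below the 12-month mice, and these below all mice of 3 and 6 months. Grb10 fell by 0.74 at 12 against 3 months (SE 0.19, edgeR adjusted p = 0.0227) and by 1.63 at 24 against 3 months (SE 0.20, edgeR adjusted p = 2.1e-06). Corrected values were -0.45 (SE 0.13, edgeR adjusted p = 0.0295) and -1.36 (SE 0.13, edgeR adjusted p = 1.32e-06). The 12-month call was lost in 3 of the 12 fits that each left out 1 mouse, namely those that lacked 3-month mouse 2, 3-month mouse 3 and 12-month mouse 2, with edgeR adjusted p of 0.0923, 0.11 and 0.0807. With the correction it was lost in 5 of 12, those that lacked any one of the 3-month mice, 12-month mouse 1 or 12-month mouse 2.

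Mest is a paternally expressed gene that encodes a hydrolase-like protein of the endoplasmic reticulum. Its level was 4.14, 4.40 and 4.05 CPM at 3 months, 3.63, 2.67 and 4.40 CPM at 6 months, 2.08, 1.71 and 2.68 CPM at 12 months, and 1.15, 1.82 and 1.52 CPM at 24 months. The 12- and 24-month mice lay below all 3-month mice but overlapped each other. Mest fell by 0.96 at 12 against 3 months (SE 0.28, edgeR adjusted p = 0.0341) and by 1.48 at 24 against 3 months (SE 0.30, edgeR adjusted p = 0.000297). With the correction the values were -0.89 (SE 0.27, edgeR adjusted p = 0.038) and -1.26 (SE 0.30, edgeR adjusted p = 0.00237). The 12-month call was lost in 6 of the 12 fits with 1 mouse left out, where the edgeR adjusted p was 0.0523 to 0.132, namely those lacking any one of the 3-month mice, 6-month mouse 1, 12-month mouse 1 or 12-month mouse 2. With the correction it was also lost in 6 of 12, those lacking the same mice. Mest overlaps the 3′ end of Copg2, which runs on the opposite strand and held 194 reads over the 3 mice at 24 months and 2721 at 3 months. The sources used here do not say whether counting was strand-specific, so reads in the overlap cannot be told apart.

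Meg3, a maternally expressed long noncoding RNA of the Dlk1-Dio3 cluster on chromosome 12, had a different course. Its level was 8.64, 16.2 and 12.4 CPM at 3 months, 11.0, 9.73 and 9.21 CPM at 6 months, 3.29, 4.59 and 1.87 CPM at 12 months, and 6.01, 4.94 and 6.91 CPM at 24 months. On this scale the 12-month mice were the lowest, and the 24-month mice lay between the 12- and 6-month mice without overlap. With the correction, and in CPM on library totals, the 12- and 24-month mice overlapped. Meg3 fell by 1.93 at 12 against 3 months (SE 0.31, edgeR adjusted p = 0.00301), and by 1.64 with the correction (SE 0.23, edgeR adjusted p = 0.00144). It fell by 1.06 at 24 against 3 months (SE 0.30, edgeR adjusted p = 0.00404), and by 1.61 with the correction. The value at 24 against 12 months, 0.86 on the log2 scale (SE 0.31, edgeR adjusted p = 0.0197), was 0.03 with the GC and length correction (edgeR adjusted p = 0.932) and -0.27 with GC alone. It lost its call in 7 of the 12 uncorrected fits with 1 mouse left out, those lacking 3-month mouse 1, 3-month mouse 3, any one of the 6-month mice, 12-month mouse 1 or 12-month mouse 3, where it was 0.58 to 0.66.

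**Figure D2:**
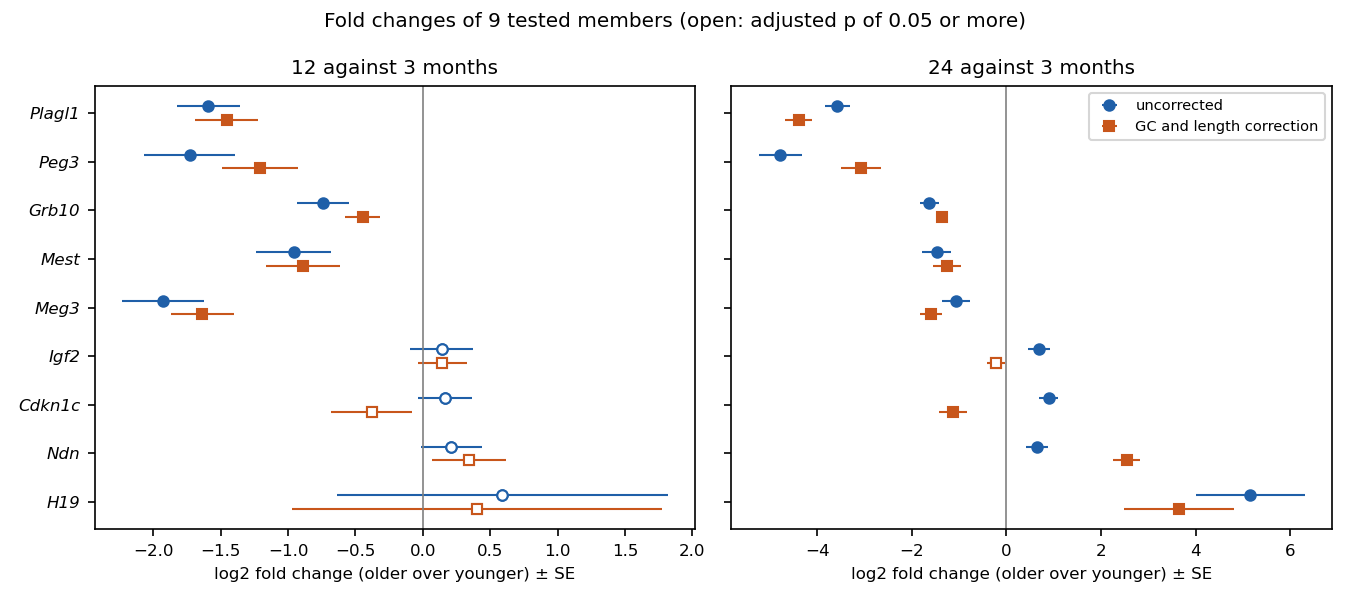
Log2 fold change ± SE of the 9 tested genes at 12 and at 24 against 3 months (left and right panel, older over younger), uncorrected (circles) and with the GC and length correction (squares). Open symbols mark an adjusted p of 0.05 or more; Plagl1, Peg3, Grb10, Mest and Meg3 lie left of 0 in both panels and both forms, and Cdkn1c lies at 0.89 uncorrected and at -1.13 corrected at 24 months. Igf2 lies at 0.69 uncorrected and at -0.23 corrected in that panel.

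Plagl1 and Meg3 kept their 12-month calls in all 12 fits that left out 1 mouse, with and without the correction. Peg3 kept its call in all 12 uncorrected fits and in 10 of the 12 corrected ones. In those fits 3 to 5 members were called uncorrected and 2 to 6 corrected, where 302 to 5928 and 742 to 4858 of all genes were called. The uncorrected fits with 3 members called lacked 3-month mouse 2, 3-month mouse 3 or 12-month mouse 2. They called 302, 485 and 751 of all genes. Without the 24-month libraries the same number, 5 lower, was called at 12 against 3 months. That fit called 3021 of 15908 genes higher and 2727 lower. The GC content of 12-month mouse 3 was 51.1%, against 50.9 to 51.1% at 3 months, and this mouse had 13.1 CPM of Plagl1, 5.14 CPM of Peg3, 29.1 CPM of Grb10, 2.68 CPM of Mest and 1.87 CPM of Meg3. Plagl1, Peg3 and Mest were at their highest 12-month level in it, and Grb10 and Meg3 at their lowest. Genes within 1 percentage point of the GC content of Plagl1 and of Meg3 had medians of 0.28 and 0.30 at 12 against 3 months.

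**Figure D3:**
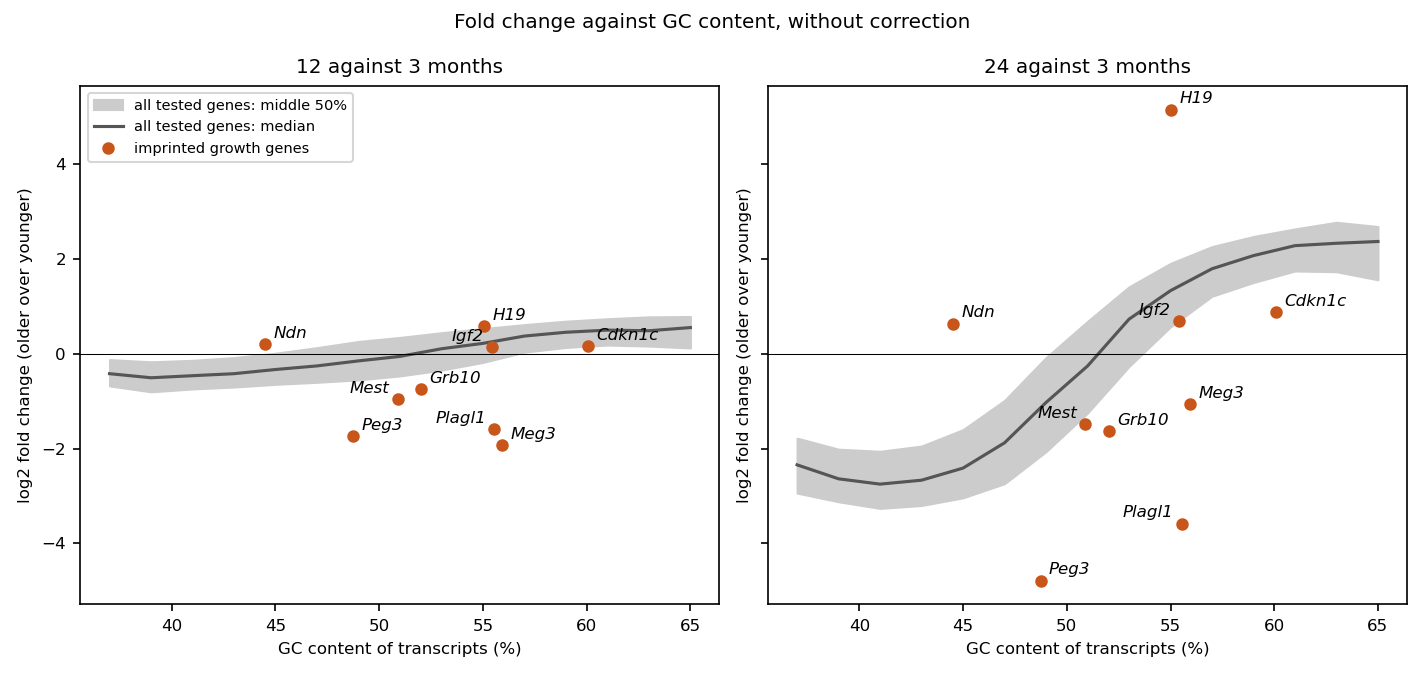
Uncorrected log2 fold change (vertical axis) against transcript GC content in percent (horizontal axis) at 12 and at 24 against 3 months, with the median and middle 50% of all tested genes as a line and band. Plagl1, Meg3, Peg3, Grb10 and Mest lie below the band in both panels, and Ndn, at 44.5% GC, lies at 0.64 in the 24-month panel (-0.09 on library totals) where the 1395 genes of like GC content had a median of -2.51.

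At 6 against 3 months no imprinted growth gene was called in the edgeR test. Over all genes 0.0% were called, and 0.00623% with the correction (267 at an unadjusted p under 0.05, uncorrected, and 6 genes in DESeq2), and the members' log2 fold changes lay between -0.36 for Peg3 and 0.24 for H19.

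The RefSeq table of promoters (GRCm38.p6) held windows of 300 bases, 250 before to 50 after the start, for 8 of the 10 genes. Those of the 5 genes that were lower at 12 months are shown because these genes share that call. Where a gene has several starts, the window with most CpG sites is given. CpG sites, the letters that imprinting marks by methylation, are in capitals. Windows are written 5′ to 3′ along the gene's strand.
Plagl1, chr10:13090582-13090881, plus strand: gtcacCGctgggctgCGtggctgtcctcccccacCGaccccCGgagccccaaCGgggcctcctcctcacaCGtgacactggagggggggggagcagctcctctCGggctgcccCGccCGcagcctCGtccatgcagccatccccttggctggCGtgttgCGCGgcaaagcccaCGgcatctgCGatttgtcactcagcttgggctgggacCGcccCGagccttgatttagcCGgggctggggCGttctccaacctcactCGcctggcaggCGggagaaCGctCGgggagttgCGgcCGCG
Peg3, chr7:6730370-6730669, minus strand: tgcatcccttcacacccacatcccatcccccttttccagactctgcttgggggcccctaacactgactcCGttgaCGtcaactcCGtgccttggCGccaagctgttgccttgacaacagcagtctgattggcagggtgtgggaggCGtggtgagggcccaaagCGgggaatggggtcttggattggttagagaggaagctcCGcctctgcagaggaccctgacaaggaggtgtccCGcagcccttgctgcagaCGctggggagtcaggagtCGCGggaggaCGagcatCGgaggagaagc
Grb10, chr11:12037371-12037670, minus strand: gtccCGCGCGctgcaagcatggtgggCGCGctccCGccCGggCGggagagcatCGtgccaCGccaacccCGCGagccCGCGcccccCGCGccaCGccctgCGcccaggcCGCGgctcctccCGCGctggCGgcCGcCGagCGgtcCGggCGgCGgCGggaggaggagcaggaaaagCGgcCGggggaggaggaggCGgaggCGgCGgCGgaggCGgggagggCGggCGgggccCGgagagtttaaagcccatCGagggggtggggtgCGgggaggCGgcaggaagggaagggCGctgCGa
Mest, chr6:30737800-30738099, plus strand: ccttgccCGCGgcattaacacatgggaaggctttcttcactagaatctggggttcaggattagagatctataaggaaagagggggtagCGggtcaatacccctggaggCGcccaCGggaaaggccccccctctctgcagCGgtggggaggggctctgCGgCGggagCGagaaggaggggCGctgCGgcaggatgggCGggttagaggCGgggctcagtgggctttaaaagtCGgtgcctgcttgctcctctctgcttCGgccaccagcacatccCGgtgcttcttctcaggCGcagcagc
Meg3, chr12:109540746-109541045, plus strand: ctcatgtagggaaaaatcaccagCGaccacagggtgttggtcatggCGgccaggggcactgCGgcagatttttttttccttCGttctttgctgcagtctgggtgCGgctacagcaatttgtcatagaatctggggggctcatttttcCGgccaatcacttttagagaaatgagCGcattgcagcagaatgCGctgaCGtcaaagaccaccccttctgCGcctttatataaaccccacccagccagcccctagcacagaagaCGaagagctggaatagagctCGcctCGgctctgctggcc
The windows hold 26 CpG sites in Plagl1, 13 in Peg3, 45 in Grb10, 17 in Mest and 13 in Meg3, against a median of 7 over the 32851 windows of the table. Of all windows, 1.93% hold at least as many as Grb10 and 37.9% at least as many as Peg3 and Meg3. The choice of window raises the counts of genes with several starts. The windows not shown hold 9 CpG sites in Grb10, 1 in Meg3, and 8 and 17 in Mest. At least 9 are held by 45.8% of all windows, at least 8 by 48.65% and at least 1 by 94.6%. The sequence GGGGCCCC, its own reverse complement and reported as a recognition sequence of the Plagl1 protein, was found once in the Peg3 window, in none of the other 4, and in 1.08% of all windows. TATAAA, searched on both strands, matched once on each strand of the Meg3 window, with the 2 matches overlapping in a single stretch. It was found in none of the other 4 windows, and in 13.6% of all windows. These matches describe the letters in the windows. Binding and methylation were not measured.

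Igf2, Cdkn1c and Ndn were higher at 24 than at 3 months after TMM scaling, but Igf2 and Ndn turned to -0.03 and -0.09 on library totals, and Igf2 and Cdkn1c to -0.23 and -1.13 with the GC and length correction. At 24 against 3 months 82.8% of all tested genes were called, 38.2% higher and 44.6% lower, so 9 of 9 members called, 4 higher and 5 lower, stand against a background in which most genes were called. Of the calls over all genes 46.2% were higher after TMM scaling and 33.1% on library totals. With the correction 2 members were higher and 6 lower, where 60.3% of all genes were called, 31.6% higher and 28.7% lower.

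In mm10, Igf2 (chr7:142650766-142666816), H19 (chr7:142575529-142578143) and Cdkn1c (chr7:143458350-143461050) lie on the minus strand of the distal end of chromosome 7. Ndn (chr7:62348277-62349928) lies elsewhere on that chromosome, on the plus strand.

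Igf2 encodes the fetal growth factor IGF2 and is paternally expressed. Its level was 11.7, 10.1 and 11.5 CPM at 3 months, 12.2, 13.2 and 12.0 CPM at 6 months, 14.9, 14.3 and 7.47 CPM at 12 months, and 19.2, 17.1 and 17.6 CPM at 24 months. The 24-month mice lay above all younger mice on this scale. The 6-month mice lay above the 3-month mice without a call in the edgeR test, and the 12-month mice overlapped both. Igf2 was higher by 0.69 at 24 against 3 months (SE 0.23, edgeR adjusted p = 0.0127), but its value was -0.03 on library totals and -0.23 with the GC and length correction (SE 0.19, edgeR adjusted p = 0.306). With GC content alone it was -0.54 (SE 0.19, edgeR adjusted p = 0.0241). The uncorrected call was lost in 6 of the 12 fits with 1 mouse left out, those lacking 3-month mouse 1, 3-month mouse 3, any one of the 6-month mice or 12-month mouse 1. In the authors' FPKM, which use library totals, it averaged 2.69 ± 0.71 at 24 months and 2.75 ± 0.16 at 3 months (SD, n = 3 each). Igf2 overlaps the antisense gene Igf2os, which held 39 reads at 24 months and 19 at 3 months.

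Cdkn1c encodes p57, a maternally expressed inhibitor of the cell cycle. It had 41.5, 37.1 and 39.8 CPM at 3 months, 35.0, 43.1 and 46.5 CPM at 6 months, 48.5, 48.9 and 35.1 CPM at 12 months, and 82.1, 79.0 and 58.1 CPM at 24 months. On this scale the 24-month mice lay above all others. In CPM on library totals the 24-month mice had 67.7, 60.5 and 30.3, against 44.6 to 48.0 at 3 months, so they overlapped. Cdkn1c was higher by 0.89 at 24 against 3 months (SE 0.20, edgeR adjusted p = 0.000806), but lower with the GC and length correction, at -1.13 (SE 0.30, edgeR adjusted p = 0.00502). Its transcripts had the highest GC content of the 10 genes, 60.1%, and the 665 genes of like GC content had a median of 2.19. The corrected levels were 62.0, 62.8 and 68.8 CPM at 3 months, 52.2, 60.4 and 74.2 CPM at 6 months, 54.8, 52.7 and 41.2 CPM at 12 months, and 40.9, 35.4 and 12.5 CPM at 24 months. On the corrected scale the 24-month mice lay below all others, with mouse 3 the lowest.

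Ndn encodes necdin, a paternally expressed protein that restrains proliferation and is best known in neurons. It had 17.0, 13.1 and 10.9 CPM at 3 months, 14.5, 13.9 and 12.6 CPM at 6 months, 17.8, 18.5 and 11.3 CPM at 12 months, and 23.4, 19.1 and 21.7 CPM at 24 months. On this scale the 24-month mice lay above the rest, and the 3 younger ages overlapped. Ndn was higher by 0.64 at 24 against 3 months (SE 0.23, edgeR adjusted p = 0.0162) and by 2.54 with the correction (SE 0.29, edgeR adjusted p = 4.37e-06), but its value was -0.09 on library totals. The corrected levels were 52.5, 46.0 and 73.0 CPM at 24 months, against 7.90 to 11.1 CPM at 3 months. Leaving out 1 mouse gave 0.27 to 0.72 uncorrected, with the call lost in 5 of 12 fits (3-month mouse 3, any one of the 6-month mice, or 12-month mouse 1 left out) and the lowest value without 3-month mouse 3, and 2.36 to 2.69 corrected. Ndn had the lowest GC content of the 10, 44.5%.

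At 12 against 3 months none of Igf2, Cdkn1c, Ndn and H19 was called. Their values were 0.14 for Igf2, 0.16 for Cdkn1c, 0.21 for Ndn and 0.59 for H19, with edgeR adjusted p between 0.508 and 0.751, while Cdkn1c was -0.38 with the GC and length correction and Igf2 -0.07 with GC alone. At 24 against 12 months, where 79.7% of all genes were called (37.3% higher and 42.5% lower), 4 members were higher (Meg3, Igf2, Cdkn1c and H19) and 3 lower (Plagl1, Peg3 and Grb10) uncorrected, with the directions of Meg3, Igf2 and Cdkn1c turned in at least 1 other scaling. With the correction 2 were higher, Ndn and H19, and 3 lower, Plagl1, Peg3 and Grb10, where 48.0% of all genes were called, 24.3% higher and 23.7% lower.

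Per length of transcript, in the authors' FPKM, the order of mean levels at 3 months ran from Cdkn1c (23.9) over Grb10 (12.6), Ndn (9.68), Plagl1 (7.93), Igf2 (2.75), Mest (1.92), Peg3 (1.62), Meg3 (1.00) and H19 (0.318) to Dlk1 (0.0144). In that order, the FPKM ranges of Grb10 and Ndn overlapped at 3 months, as did those of Ndn and Plagl1 and of Peg3 and Meg3. The other neighbours in the order did not overlap. At 24 months Cdkn1c (27.4) was again the highest, Plagl1 averaged 0.398 and Peg3, the lowest, 0.0331.

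H19, the maternally expressed noncoding RNA next to Igf2, was low in all libraries but one. It had 0.869, 0.528 and 0.473 CPM at 3 months, 0.825, 0.706 and 0.718 CPM at 6 months, 1.12, 0.608 and 1.11 CPM at 12 months, and 2.39, 2.18 and 64.9 CPM at 24 months. In mouse 3 at 24 months it held 554 reads, against 29 and 30 in the other 2. H19 was higher by 5.16 at 24 against 3 months with this mouse (SE 1.15, edgeR adjusted p = 0.00104) and by 1.85 without it (SE 0.39, edgeR adjusted p = 0.000397). With the correction the values were 3.66 with it (SE 1.16, edgeR adjusted p = 0.0198) and 0.72 without it (SE 0.39, edgeR adjusted p = 0.131). At 24 against 12 months it was 4.57 with this mouse (edgeR adjusted p = 0.00209) and 1.26 without it (edgeR adjusted p = 0.00691), and with the correction 3.26 (edgeR adjusted p = 0.0353) and 0.30 (edgeR adjusted p = 0.556). The corrected call at 24 against 3 months was also lost without 3-month mouse 2 or 3. DESeq2 gave no adjusted p for H19 at 24 against 3 months.

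Markers of keratinised epithelium and of skeletal muscle were also high in that library. Of 14 keratinised epithelium markers 11 were at their highest there, and the 14 summed to 1388 CPM, against 21.2 to 62.8 CPM in the other 11 libraries, with Krt4 at 506 and Krt13 at 459 CPM. The other 3 were not: Krt10 was at 1.64 CPM, within its range in the other libraries, Trp63 at 0.234 CPM, its lowest, and Dsg3 at 0. Of 14 skeletal muscle markers 11 were at their highest there, and the 14 summed to 464 CPM against 9.30 to 50.4 CPM in the other 11, with Acta1 at 196 and Ckm at 137 CPM and Myf5, Myf6 and Myh2 at 0. Cartilage markers summed to 23.0 CPM against 2.21 to 6.36 CPM, with 5 of 11 at 0. The part of these tissues in the H19 level was not tested.

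**Figure D4:**
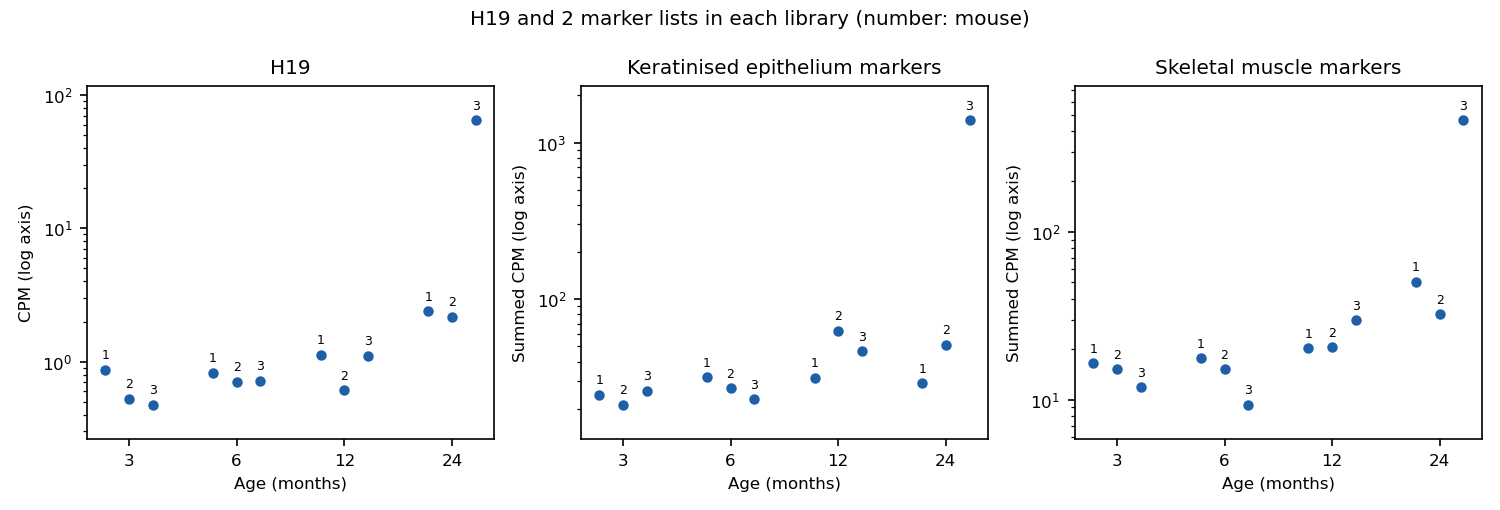
H19 in CPM and the summed CPM of 14 keratinised epithelium and 14 skeletal muscle markers in each library (log axes), by age in months, numbered by mouse. Mouse 3 at 24 months stands highest in all 3 panels, at 64.9, 1388 and 464 CPM.

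Without mouse 3 of 24 months, the uncorrected log2 fold changes at 24 against 3 months were -3.70 for Plagl1, -4.69 for Peg3, -1.48 for Grb10, -1.48 for Mest and -1.18 for Meg3, each with an edgeR adjusted p under 0.05. Cdkn1c was then 1.03 uncorrected and -0.72 corrected. Igf2 was 0.71 and -0.09 in these forms, and Ndn 0.64 and 2.36.

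Dlk1, a paternally expressed membrane protein that holds back differentiation of fat and other mesenchymal cells, had at most 8 reads in any library. It had 2, 2 and 0 reads at 3 months, 3, 6 and 0 at 6 months, 1, 2 and 2 at 12 months, and 3, 8 and 7 at 24 months. The 24-month reads lay above those at 3 and 12 months and overlapped those at 6 months. Pooled over mice and set over the scaled library sizes, 18 reads at 24 months against 4 at 3 months gave a ratio of 8.62 (95% exact binomial interval 2.84 to 35.0, counting error only). The two-sided exact permutation test over mice gave p = 0.1, the smallest that 3 against 3 mice allow. Dlk1 held 5 reads at 12 months against 4 at 3 months, a ratio of 1.41 (95% exact binomial interval 0.304 to 7.12).

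Summed marker levels are given beside these changes, for 8 lists of cell types and tissues. On the TMM scale, the 12-month mice lay above the 3-month mice without overlap for 6 of the 8 lists, and the 24-month mice for 8 of 8. These sums depend on the scaling, since a lower TMM factor gives a higher CPM. The factors were 0.521 to 0.826 at 24 months and 1.15 to 1.20 at 3 months. Whether the lists lie apart on library totals was not tested. Single markers were mixed at 24 against 3 months. Epithelium and endothelium had 6 higher and 5 lower (2 and 4 with the correction), and mesothelium 3 and 4 (1 and 3). Adipose had 5 and 2 (4 and 0), heart muscle 7 and 1 (2 and 1), and skeletal muscle 5 and 0 (3 and 0). Keratinised epithelium had 7 and 1 (2 and 1), and cartilage 2 and 1 (0 and 1). Lung epithelium and endothelium summed to 69934 to 80060 CPM at 12 months and 67848 to 86874 CPM at 24 months, against 48926 to 65245 CPM at 3 months. Adipose markers summed to 230 to 450 CPM at 12 months and 264 to 449 CPM at 24 months, against 168 to 201 CPM at 3 months. Heart muscle markers, which lung veins also carry in mice, summed to 649 to 744 CPM at 12 months and 699 to 1169 CPM at 24 months, against 323 to 596 CPM at 3 months. Mesothelium markers summed to 739 to 961 CPM at 12 months and 1167 to 1549 CPM at 24 months, against 498 to 587 CPM at 3 months. Skeletal muscle markers summed to 20.3 to 29.8 CPM at 12 months and 32.2 to 464 CPM at 24 months, against 11.9 to 16.5 CPM at 3 months. Keratinised epithelium markers summed to 31.5 to 62.8 CPM at 12 months and 29.2 to 1388 CPM at 24 months, against 21.2 to 26.2 CPM at 3 months. Cartilage markers, at 2.21 to 6.36 CPM at 12 months and 4.58 to 23.0 CPM at 24 months against 3.34 to 3.47 CPM at 3 months, overlapped at 12 months, as did lung fibroblast markers. Lung fibroblast markers summed to 4455 to 5399 CPM at 12 months, with 0 of 12 higher and 2 lower, and to 8304 to 11515 CPM at 24 months, with 5 of 12 higher and 7 lower (3 and 4 with the correction), against 4514 to 5278 CPM at 3 months. At 12 against 3 months 4 of 13 epithelial and endothelial, 5 of 12 adipose, 5 of 10 heart muscle and 2 of 8 mesothelium markers were called higher, and none of these lower. The part of cell composition in the members' changes was not tested.

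Neighbours within the imprinted clusters were read beside the members, and those named were chosen after their values were seen. Within 1 Mb of Meg3, Rian, a maternally expressed noncoding RNA, fell by 1.25 at 12 against 3 months (SE 0.32, edgeR adjusted p = 0.0224) and by 3.36 at 24 against 3 months. With the correction its values were -0.53 (edgeR adjusted p = 0.19) and -0.47 (edgeR adjusted p = 0.299), so neither was called. Mirg, a microRNA host transcript of the same cluster, had -1.67 at 12 against 3 months (edgeR adjusted p = 0.0588), and Rtl1 and Dio3 were not tested for lack of reads. Phactr2, 76023 bases from Plagl1, had -0.80 at 12 against 3 months (edgeR adjusted p = 0.0372) and -0.25 with the correction (edgeR adjusted p = 0.184), where Plagl1 had -1.46. Copg2, which overlaps Mest, had -0.06 at 12 months (edgeR adjusted p = 0.848) and fell by 2.91 at 24 months (SE 0.22, edgeR adjusted p = 4.83e-08), and by 1.27 with the correction (edgeR adjusted p = 9.92e-06). Near Ndn, Mkrn3, a ring-finger gene, fell by 2.02 at 24 against 3 months (edgeR adjusted p = 0.0019) and by 1.43 with the correction, and Magel2 was not tested. Near Grb10, Ddc, which encodes aromatic amino acid decarboxylase, fell by 3.54 at 24 months, and by 2.73 with the correction.

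Of a list of 65 other imprinted genes, 59 were in the table and 47 were tested. At 12 against 3 months 2 were higher and 7 lower, 19.1% of the 47 against 15.2% of all genes, with a median of -0.26 against -0.02 over all genes. With the correction 5 were higher and 4 lower, where 17.7% of all genes were called, with a median of -0.10 against 0.05. Slc22a18, a transporter gene near Cdkn1c, rose by 0.93 (edgeR adjusted p = 0.0259; 0.38 with the correction, edgeR adjusted p = 0.0758), and Dhcr7, an enzyme of cholesterol synthesis, rose by 0.70 (edgeR adjusted p = 0.0422; 0.73 with the correction). Ppp1r9a, which encodes neurabin, fell by 1.44 (SE 0.25, edgeR adjusted p = 0.00416) and by 0.88 with the correction. Between 1 and 20 of the 47 were called when 1 mouse was left out, with 1 call without 3-month mouse 2 and 20 without 24-month mouse 3.

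At 24 against 3 months 12 of the 47 were higher and 25 lower. These 78.7% stand near the 82.8% called over all genes (38.2% higher and 44.6% lower), and the median was -1.23 against -0.29 over all genes. With the correction 9 were higher and 16 lower, 53.2% against 60.3% of all genes, with a median of -0.37 against 0.01. Dhcr7 averaged 91.2 ± 26.7 CPM at 24 months and 17.8 ± 1.03 CPM at 3 months (SD, n = 3 each), and Kcnq1, a potassium channel gene of the Cdkn1c cluster, averaged 85.5 ± 8.56 CPM at 24 months and 24.8 ± 0.619 CPM at 3 months. Dhcr7 was higher by 2.35 uncorrected and 2.06 corrected, and Kcnq1 by 1.78 and 0.71, all past the threshold. H13, a signal peptide peptidase gene, was higher by 2.48 uncorrected and 1.54 corrected. Ppp1r9a averaged 3.89 ± 1.73 CPM at 24 months and 60.6 ± 10.2 CPM at 3 months, and Impact, a regulator of translation, averaged 3.56 ± 0.777 CPM at 24 months and 39.5 ± 1.76 CPM at 3 months. Both remained lower with the correction, at -1.74 and -1.88, while Slc22a18 was 2.37 uncorrected and 0.27 corrected (edgeR adjusted p = 0.107).

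**Figure D5:**
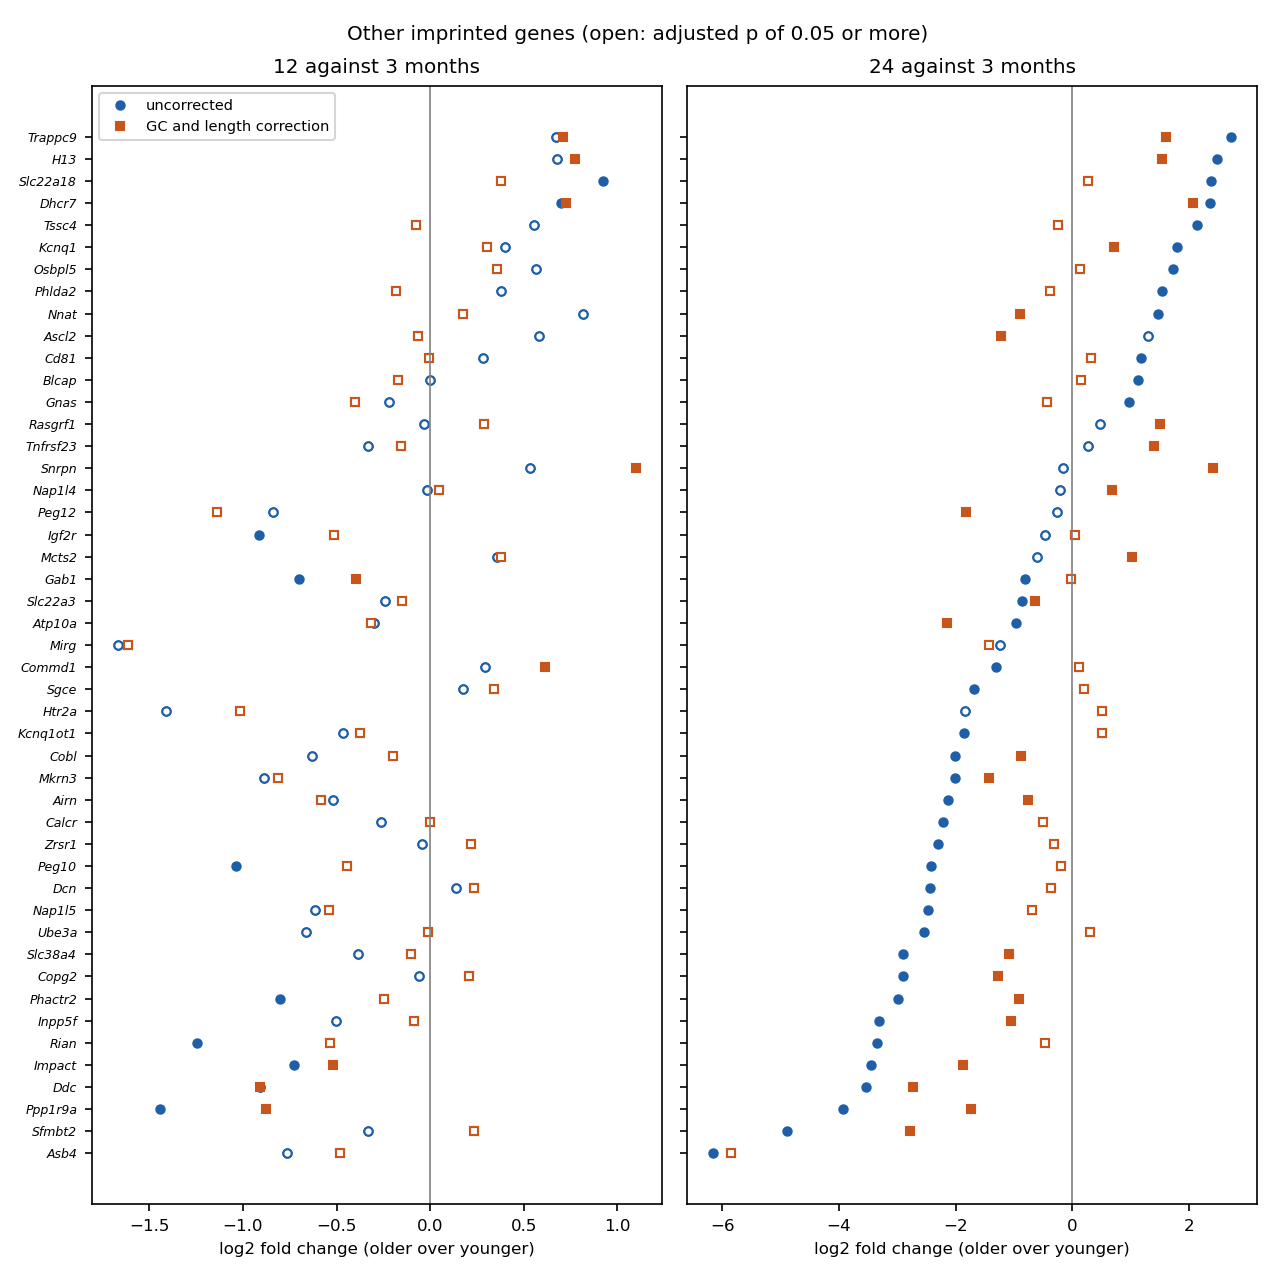
Log2 fold change of the 47 tested other imprinted genes (rows, ordered by the uncorrected 24-month value) at 12 and at 24 against 3 months, uncorrected (circles) and with the GC and length correction (squares), open where the adjusted p is 0.05 or more. At 24 months the median is -1.23 uncorrected, with 12 genes called higher and 25 lower, and -0.37 corrected.

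Partners of IGF2 were read from a list of 16 genes, of which 14 were tested. At 24 against 3 months 4 were higher and 5 lower uncorrected, 64.3% of the 14 against 82.8% of all genes. With the correction 3 were higher and 5 lower, 57.1% against 60.3% of all genes. Their median log2 fold change was 0.02 uncorrected, against -0.29 over all genes, and -0.14 with the correction, against 0.01 over all genes. Among binding proteins of the growth factor, Igfbp2 averaged 1691 ± 192 CPM at 24 months and 271 ± 40.4 CPM at 3 months, and was higher by 2.64 uncorrected (SE 0.20, edgeR adjusted p = 4.69e-08) and 0.61 corrected (SE 0.20, edgeR adjusted p = 0.0182). Igfbp4 was higher by 2.42 and 0.96 corrected. Of the receptors, Igf1r, which carries the growth signal of IGF2, was higher by 1.46 uncorrected and 2.74 corrected, and Insr, the insulin receptor, fell by 3.27 uncorrected and by 1.05 corrected, all past the threshold. Igfbp6, Igfbp5 and Igf1 were called uncorrected, at 1.98, -1.21 and -2.03. With the correction they were not called, at -0.17, -0.11 and 0.03 (edgeR adjusted p = 0.304, 0.590 and 0.944). Igf2r, the imprinted receptor that clears IGF2, had -0.47 uncorrected at 24 against 3 months (edgeR adjusted p = 0.134) and 0.05 corrected (edgeR adjusted p = 0.848). It is also on the list of other imprinted genes. Of the 14, 35.7% were called at 12 against 3 months, against 15.2% of all genes: 2 were higher, Igfbp2 by 1.11 and Igfbp6 by 0.98 (0.52 and 0.40 with the correction, edgeR adjusted p = 0.089 and 0.0529), and 3 were lower, Insr at -1.10, the receptor substrate gene Irs1 at -1.71 and Igf2r at -0.91 (edgeR adjusted p = 0.0444; corrected -0.51, edgeR adjusted p = 0.0793). With the correction none was higher and 3 were lower, Insr, Irs1 and Irs2, another receptor substrate gene. These are 21.4% of the 14, near the 17.7% of all genes called with the correction.

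Over the 12 libraries, the log2 levels of Mtss1, Atf1 and Yod1 were most like those of Plagl1, with Pearson r of 0.993, 0.991 and 0.990. For Meg3 the closest gene with a named function was Cacna1c, a calcium channel gene, at 0.959. For Grb10 it was Usp48 at 0.994, for Peg3 Zfp101 at 0.990 and for Cdkn1c Abcf2 at 0.985. These libraries share 4 ages, and the 24-month libraries stand apart. The values therefore describe a likeness over these 12 libraries, in which age and the composition of the 24-month libraries cannot be told apart.

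In the authors' deposited table, the log2 fold changes at 12 against 3 months were -1.51 for Plagl1, -1.64 for Meg3, -1.53 for Peg3, -0.71 for Grb10 and -0.84 for Mest. At 24 against 3 months the authors' deposited table gives 2.73 for Dlk1 with an adjusted p of 0.00422, and 3.91 for H19 with no adjusted p.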

How the data were processed

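The deposited table holds, for each of 35275 genes and 12 mouse lung libraries, the read counts per gene that the authors deposited, with FPKM of the same libraries, the authors' mean scaled reads per age (signal), gene lengths, and log2 fold changes and p-values of the authors' own comparisons. Per the submitters' processing notes, TopHat, STAR 2.5 and HTSeq 0.6.1 were used with mm10. The notes do not say which aligner made the counts or whether counting was strand-specific. The authors' deposited FPKM equalled counts over gene length and total gene reads for 235411 of 235411 values above 0, within a relative tolerance of 1e-06. FPKM and the log2 fold changes and adjusted p-values of the authors' deposited table are printed only where named as such, and the normalised signal the authors deposited was used in no test.

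Counts were tested with edgeR's quasi-likelihood test (edgeR 4.0.16, limma 3.58.1, R 4.3.3), with TMM scaling, edgeR's default filter on low counts and all 12 libraries in one fit, which tested 16042 genes. Adjusted p-values are Benjamini-Hochberg over all tested genes, and a gene is called at an adjusted p under 0.05. CPM are counts scaled to TMM library sizes. In the GC and length correction, each library's smooth trend (mgcv 1.9.3) of log2 CPM (prior count 2) on transcript GC content and log2 gene length entered the fit as an offset. GC content came from GENCODE M21 transcripts of GRCm38, which matched 97.8% of gene identifiers. The fits were tested on simulated data. The labels do not say whether the 3 mice of an age shared a cage, litter or extraction day. The edgeR p-values set each difference against the spread between these libraries.

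All 10 genes are named with every library. From the lists of other imprinted genes and of IGF2 partners, up to 4 genes each way with the smallest p among those called at 24 against 3 months with a mean of at least 1 CPM could be named, and up to 2 each way at 12 against 3 months. From the marker lists the 2 genes with the highest CPM in any library are named. For likeness the 3 genes of highest Pearson r were listed for each gene. Igf2r, Irs2, Krt10, Trp63, markers at 0 and the neighbours named fall outside this rule and were named after their values were seen. Alternatives were GC content alone, RLE scaling, DESeq2 1.42.0, no filter, a mean of at least 1 CPM, a mouse-number block, fewer libraries, each mouse left out in turn, and, added after seeing the data, library totals without TMM and the correction without the 24-month libraries. The 10 genes and all lists were chosen with earlier results of these data known.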

Additional observations from a re-analysis of the deposited data

How the results depend on the processing

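At 12 against 3 months 5 members were lower and none higher under each of the 12 other settings run on this comparison, DESeq2 and the fit without 24-month libraries included. Those settings called 487 to 3021 of all tested genes higher and 985 to 2727 lower. At 24 against 3 months 6 to 10 members were called, 6 on library totals and 10 without filter. Over all genes, library totals called 4230 of 16042 higher and 8544 lower. The fit without filter called 6317 of 24086 higher and 7413 lower. Leaving out 1 mouse gave 7 to 9 called at 24 against 3 months (corrected 7 to 8), 5 to 7 at 24 against 12 months (4 to 7), 3 to 5 at 12 against 3 months (2 to 6) and 0 at 6 against 3 months. In the same order, 12827 to 13707 (corrected 8621 to 10113), 12338 to 12779 (6892 to 7870), 302 to 5928 (742 to 4858) and 0 to 1 (0 to 2) of all genes were called. At 24 against 12 months 4 members were called with the correction and a mouse-number block, against 7 in the uncorrected fit. Of the other imprinted genes 23 were called there with GC alone, against 36. Over all genes the correction with the block called 3825 higher and 3662 lower there. GC alone called 3730 and 3704, and the uncorrected fit 5976 and 6815.

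Without filter Dlk1 entered the test, with 3.02 at 24 against 3 months (edgeR adjusted p = 0.0054). On GC alone, GC with length, and both with the block, Igf2 was -0.54, -0.23 and -0.24 at 24 against 3 months and -0.48, -0.37 and -0.37 at 24 against 12 months, and on library totals -0.034 and -0.050. Cdkn1c under the 3 corrections was -0.90, -1.13 and -1.19 at 24 against 3, -0.66, -0.75 and -0.79 at 24 against 12, -0.25, -0.38 and -0.40 at 12 against 3, and -0.033, -0.051 and -0.037 at 6 against 3 months. Without the 24-month libraries its corrected values were -0.38 at 12 and -0.050 at 6 against 3 months. On library totals Ndn was -0.088 at 24 against 3 and -0.17 at 24 against 12 months. Igf2 at 12 against 3 months and Meg3 at 24 against 12 months turned to -0.068 and -0.27 with GC alone. Ndn at 6 against 3 months, -0.01 uncorrected, was 0.055, 0.023 and 0.035 under the 3 corrections, 0.026 without 24-month libraries, 0.0024 with RLE, 0.014 with the block and 0.00021 in DESeq2. The log2 ratio of mean levels at 24 against 3 months was -0.033 for Igf2 and -0.086 for Ndn in FPKM and in CPM of all gene reads. The cause of these turns was not tested.

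With 1 mouse left out, corrected values ran from -0.37 to -0.089 for Igf2 and -1.39 to -0.72 for Cdkn1c at 24 against 3 months, while uncorrected ones reached 0.72 and 1.03. At 24 against 12 months they ran from -0.16 to 0.29 for Meg3, -0.52 to -0.24 for Igf2 and -1.04 to -0.37 for Cdkn1c, while uncorrected ones reached 1.18, 0.67 and 0.87. Igf2 at 12 against 3 months ran from -0.040 to 0.40 uncorrected and Cdkn1c from -0.44 to -0.26 corrected and up to 0.31 uncorrected. At 6 against 3 months Plagl1 ran from -0.27 to 0.0031 and Cdkn1c from -0.19 to 0.07 corrected, and Ndn from -0.14 to 0.20 (corrected -0.10 to 0.14).

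Of the 47 other imprinted genes, 9 were called at 12 against 3 months, 5 with the block, 5 on library totals, 14 with only the 6 mice compared, 19 without the 24-month libraries and 14 without these and with the correction. With 1 mouse left out 38 to 42 (corrected 23 to 28) were called at 24 against 3 months, 35 to 38 (22 to 26) at 24 against 12, 1 to 20 (1 to 16) at 12 against 3 and 0 at 6 against 3 months. Over all genes 12 against 3 months gave 1010 higher and 1423 lower, 602 and 985 with the block, 2020 and 1942 with only the 6 mice, and 3021 and 2727 without the 24-month libraries. Library totals gave 487 and 1141 in that comparison, and the correction without the 24-month libraries 2802 and 1975. The block, with mouse number as a term, left members called at 9 for 24 against 3, 7 for 24 against 12, 5 for 12 against 3 and 0 for 6 against 3 months. Over all genes the block called 6065 higher and 7065 lower at 24 against 3 months. It called 5888 and 6750 at 24 against 12, and 0 and 0 at 6 against 3 months. Deviations of same-numbered mice had a median r of -0.05 over 18 pairs of libraries, with 2 over 0.1, so the numbers were not read as pairing the mice. Depth limits Dlk1, with at most 8 reads, and Peg3 at 24 months, with 1 to 11 reads.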
